A study of Drosophila melanogaster with 14 samples.

Results

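Glycolysis turns glucose into pyruvate through a chain of cytosolic enzymes, and the genes described here encode 10 of them in *Drosophila*: *Hex-A*, *Pgi*, *Pfk*, *Tpi*, *Gapdh1*, *Gapdh2*, *Pgk*, *Pglym78*, *Eno* and *PyK*. They were found by their names in both gene tables of the study, ignoring case, and followed by their FlyBase identifiers into the table of counts, where they are 10 of 17493 genes. All 10 passed the filter on low counts in both experiments. Their transcripts were compared in embryos that lack particular protein isoforms of *shaggy* (*sgg*), the fly gene for Glycogen Synthase Kinase 3.

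RNA was taken from whole embryos aged 10 to 15 h, enriched for poly(A) and sequenced from a single end. The 3 sggisoA null samples came from a homozygous stock in which the terminal exon of the Sgg-PA class was deleted, so these embryos lacked both the maternal and the zygotic product, and their 3 control samples came from the progenitor strain, THattP40 in the sample titles. The 4 sggisoB zygotic null samples lacked the terminal exon of the Sgg-PB class. They were non-fluorescent embryos of a cross between females sggisoB/FM7 GFP and males FM7 GFP/Y, that is, hemizygous males that still carried product from their mothers, and their 4 control samples were by their labels and the study's methods, non-fluorescent embryos of the cross progenitor/FM7 GFP to FM7 GFP/Y, with attP40 in the sample descriptions. The study's results describe these controls as the progenitor stock instead, and the conflict could not be settled from the files. The study names the samples of the sggisoA experiment as biological replicates. For the sggisoB experiment nothing states that the samples were collected separately, and its p-values measure the spread between these samples.

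The sggisoA null libraries held 15841397 to 18311205 counts and their controls 8082962 to 12800846. The sggisoB zygotic null libraries held 14378062 to 25124367 counts and their controls 11189291 to 23798611. The lowest count of any of the 10 genes in any library was 714, for *Hex-A*. Levels are CPM, counts set relative to library size, scaled by the trimmed mean of M-values (TMM) over all 14 samples. A log2 fold change is null over control and was fitted within each experiment by edgeR's quasi-likelihood test, with p-values adjusted for all genes that were kept. In whole embryos, fewer cells of a type and less RNA in each cell cannot be told apart. The count of *sgg* covers all of its exons and so does not check the deletion of a single exon. It had log2 fold changes of 0.26 in sggisoA null and -0.26 in sggisoB zygotic null embryos, and neither passed the test (adjusted p = 0.403 and 0.113 from edgeR).

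In the upper part of the pathway sugar is phosphorylated and split, at a cost of ATP. In the lower part the triose phosphates are oxidised, which yields NADH, and ATP is made at the steps of phosphoglycerate kinase and pyruvate kinase. *Drosophila* embryos are known to raise the transcription of this pathway in the middle of embryogenesis, with the nuclear receptor ERR as a main activator, and a growing animal uses it together with lactate dehydrogenase to feed biosynthesis.

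In sggisoA null embryos none of the 10 genes passed an adjusted p of 0.05, beside 0.991% of all genes. Of the fitted changes 9 of 10 were negative, with a median log2 fold change of -0.37. A single control sample stood above the others for most of the pathway, and without it the median was -0.11. In sggisoB zygotic null embryos 2 genes passed, *Pgi* and *Eno*. Both were higher than in the controls, by 1.26-fold and 1.23-fold, beside 4.17% of all genes that passed as higher. Both missed the threshold with samples blocked by replicate number, and without zygotic null 3, control 3 or control 4 of that experiment. The other 8 did not pass. The median log2 fold change of all 10 was -0.04, beside -0.01 over all genes.

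The enzymes that prepare the sugar differed little within the sggisoA experiment. *Hex-A* (FBgn0001186, chromosome X) encodes hexokinase, which phosphorylates glucose. It had 95.9, 102 and 106 CPM in the sggisoA null samples, against 124, 87.4 and 121 CPM in their controls. It had 101, 90.3, 89.5 and 91.8 CPM in sggisoB zygotic null samples, against 102, 84.5, 106 and 79.6 CPM in their controls. The null samples lay inside the range of their controls in both experiments. The log2 fold changes were -0.13 (95% interval -0.46 to 0.20) and -0.02 (95% interval -0.25 to 0.20), with adjusted p = 0.649 and 0.900 from edgeR.

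*Pgi* (FBgn0003074, chromosome 2R from 8910900 to 8914069 on the minus strand of the BDGP6 assembly) encodes phosphoglucose isomerase, which turns glucose 6-phosphate into fructose 6-phosphate. In the sggisoA experiment it had 121, 129 and 118 CPM in the null samples, against 123, 109 and 150 CPM in the controls. Values were 138, 121, 131 and 138 CPM in the sggisoB zygotic null samples, against 101, 112, 101 and 99.4 CPM in the controls. The sggisoA groups overlapped, while every sggisoB zygotic null sample lay above every control of that experiment. *Pgi* rose in sggisoB zygotic null embryos, with 132 ± 7.97 CPM in the null and 103 ± 5.81 CPM in the control samples (SD, n = 4 each). The log2 fold change was 0.34 (SE 0.07, adjusted p = 0.0209 by the edgeR fit). The call was lost without zygotic null 3 (0.34, adjusted p = 0.0519 from edgeR), control 3 (0.32, adjusted p = 0.0763) or control 4 (0.32, adjusted p = 0.0622). In these fits 5.15, 2.86 and 6.2% of all genes passed, against 11.1% with every sample. In sggisoA null embryos the log2 fold change of *Pgi* was -0.05 (adjusted p = 0.873 from edgeR).

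*Pfk* (FBgn0003071, chromosome 2R) encodes phosphofructokinase, the enzyme that commits the sugar to glycolysis. It had 154, 168 and 149 CPM in the sggisoA null samples, against 150, 140 and 155 CPM in their controls. Of the sggisoB samples, the zygotic nulls had 162, 121, 163 and 133 CPM and the controls 140, 136, 129 and 131 CPM. Both pairs of groups overlapped, and of the zygotic null samples 2 lay above all of their controls, 1 among them and 1 below them. *Pfk* was the only gene of the 10 with a positive fitted change in sggisoA null embryos, 0.09 on the log2 scale, and it had 0.09 in sggisoB zygotic null embryos as well. Its adjusted p was 0.670 and 0.546 from edgeR.

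The next enzyme of the chain, aldolase, is encoded by *Ald*, which is not one of the 10. Its log2 fold changes were -0.06 in sggisoA null and 0.14 in sggisoB zygotic null embryos (adjusted p = 0.764 and 0.264 from edgeR).

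*Tpi* (FBgn0086355, chromosome 3R) encodes triose phosphate isomerase, which makes both products of aldolase usable for the rest of the pathway. It had 181, 191 and 166 CPM in the sggisoA null samples, against 221, 192 and 354 CPM in the controls. It had 186, 159, 178 and 192 CPM in sggisoB zygotic null samples, against 150, 189, 164 and 159 CPM in their controls. The sggisoA groups did not overlap, but null 2 and control 2 all but met, and control 3 stood far above the rest. The sggisoB groups overlapped. The log2 fold change was -0.51 (SE 0.21) in sggisoA null and 0.09 (SE 0.09) in sggisoB zygotic null embryos, with adjusted p = 0.248 and 0.535 from edgeR.

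Glyceraldehyde 3-phosphate dehydrogenase, which oxidises the triose phosphate and reduces NAD, is encoded by a pair of genes. *Gapdh1* (FBgn0001091, chromosome 2R) had 253, 243 and 234 CPM in the sggisoA null samples, against 249, 249 and 557 CPM in the controls. Values were 245, 213, 239 and 277 CPM in the sggisoB zygotic null samples, against 225, 287, 272 and 248 CPM in the controls. Apart from control 3 of the sggisoA experiment, all samples of *Gapdh1* lay in 1 narrow band from 213 to 287 CPM. Its log2 fold changes were -0.53 (SE 0.29) and -0.11 (SE 0.10), with adjusted p = 0.354 and 0.513 from edgeR.

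*Gapdh2* (FBgn0001092, chromosome X) had 454, 497 and 442 CPM in the sggisoA null samples, against 545, 479 and 684 CPM in the controls. Of the sggisoB samples, the zygotic nulls had 289, 266, 265 and 355 CPM and the controls 294, 387, 362 and 318 CPM. The groups overlapped within each experiment, and the log2 fold changes of -0.29 (SE 0.14) and -0.23 (SE 0.12) did not pass (adjusted p = 0.287 and 0.219 from edgeR). Between the experiments they did not overlap. All 6 samples of the sggisoA experiment lay above all 8 of the sggisoB experiment, which held for 1 of the 10 genes and for 4.3% of all genes kept over the 14 samples. *Gapdh2* made up 64.2, 67.2 and 65.4% of the CPM of both genes in the sggisoA null samples, against 68.6, 65.8 and 55.1% in the controls. It made up 52.5 to 56.2% in the sggisoB zygotic null samples, against 56.2 to 57.4% in the controls. The share in control 3 of the sggisoA experiment was the only one of that experiment within the range of the sggisoB experiment. Experiment, stock and the sorting of embryos by fluorescence, and with it by sex, cannot be told apart in this difference. *Gapdh1* and *Gapdh2* are similar in sequence, and reads shared between them could have been left out of both counts or assigned to either.

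The lower part of the pathway leads from 1,3-bisphosphoglycerate to pyruvate. *Pgk* (FBgn0250906, chromosome 2L) encodes phosphoglycerate kinase, which makes the first ATP of the pathway. It had 152, 155 and 150 CPM in the sggisoA null samples, against 186, 170 and 269 CPM in the controls. It had 151, 138, 147 and 170 CPM in sggisoB zygotic null samples, against 150, 188, 169 and 154 CPM in their controls. The sggisoA null samples were close together and below all 3 controls, with a log2 fold change of -0.45 (SE 0.17) that did not pass (adjusted p = 0.216 from edgeR). The sggisoB groups overlapped, with a log2 fold change of -0.15 (SE 0.10, adjusted p = 0.309 from edgeR).

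*Pglym78* (FBgn0014869, chromosome 3R) encodes phosphoglycerate mutase, which moves the phosphate within the molecule. It had 150, 148 and 149 CPM in the sggisoA null samples, against 146, 149 and 187 CPM in the controls. Values were 133, 134, 149 and 149 CPM in the sggisoB zygotic null samples, against 138, 161, 149 and 139 CPM in the controls. This was the steadiest gene of the lower part, with a highest sample 1.41-fold above its lowest over all 14 samples. Its log2 fold changes were -0.11 (95% interval -0.39 to 0.17) and -0.08 (95% interval -0.26 to 0.10), with adjusted p = 0.654 and 0.546 from edgeR.

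*Eno* (FBgn0000579, chromosome 2L from 1724768 to 1729636 on the minus strand) encodes enolase, which makes phosphoenolpyruvate. In the sggisoA experiment it had 339, 329 and 311 CPM in the null samples, against 369, 352 and 662 CPM in the controls. Of the sggisoB samples, the zygotic nulls had 320, 330, 366 and 304 CPM and the controls 265, 269, 272 and 254 CPM. All sggisoA null samples lay below all of their controls, and all sggisoB zygotic null samples lay above all of theirs. *Eno* rose in sggisoB zygotic null embryos, with 330 ± 26.2 CPM in the null and 265 ± 7.97 CPM in the control samples (SD, n = 4 each). The log2 fold change was 0.29 (SE 0.08, adjusted p = 0.0389 by the edgeR fit). The call was lost without zygotic null 2 (0.31, adjusted p = 0.0555 from edgeR), zygotic null 3 (0.24, 0.0966) or any of controls 1 to 4 (0.27 to 0.31, adjusted p = 0.0718 to 0.103). In sggisoA null embryos the log2 fold change was -0.49 (SE 0.23) and did not pass (adjusted p = 0.279 from edgeR). In the Ensembl annotation 362 bases of the exons of *Eno*, 9.74% of their length, overlap *Rrp40*, and reads there may be missing from its count.

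*PyK* (FBgn0267385, chromosome 3R) encodes pyruvate kinase, which makes pyruvate and the last ATP. It had 122, 136 and 113 CPM in the sggisoA null samples, against 148, 133 and 293 CPM in the controls. It had 98.0, 94.2, 123 and 102 CPM in sggisoB zygotic null samples, against 120, 106, 113 and 90.4 CPM in their controls. Both pairs of groups overlapped. *PyK* had the most negative fitted change of the 10 in sggisoA null embryos, -0.62 (SE 0.27, adjusted p = 0.265 from edgeR), and -0.06 (SE 0.11, adjusted p = 0.742) in sggisoB zygotic null embryos.

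**Figure D1:**
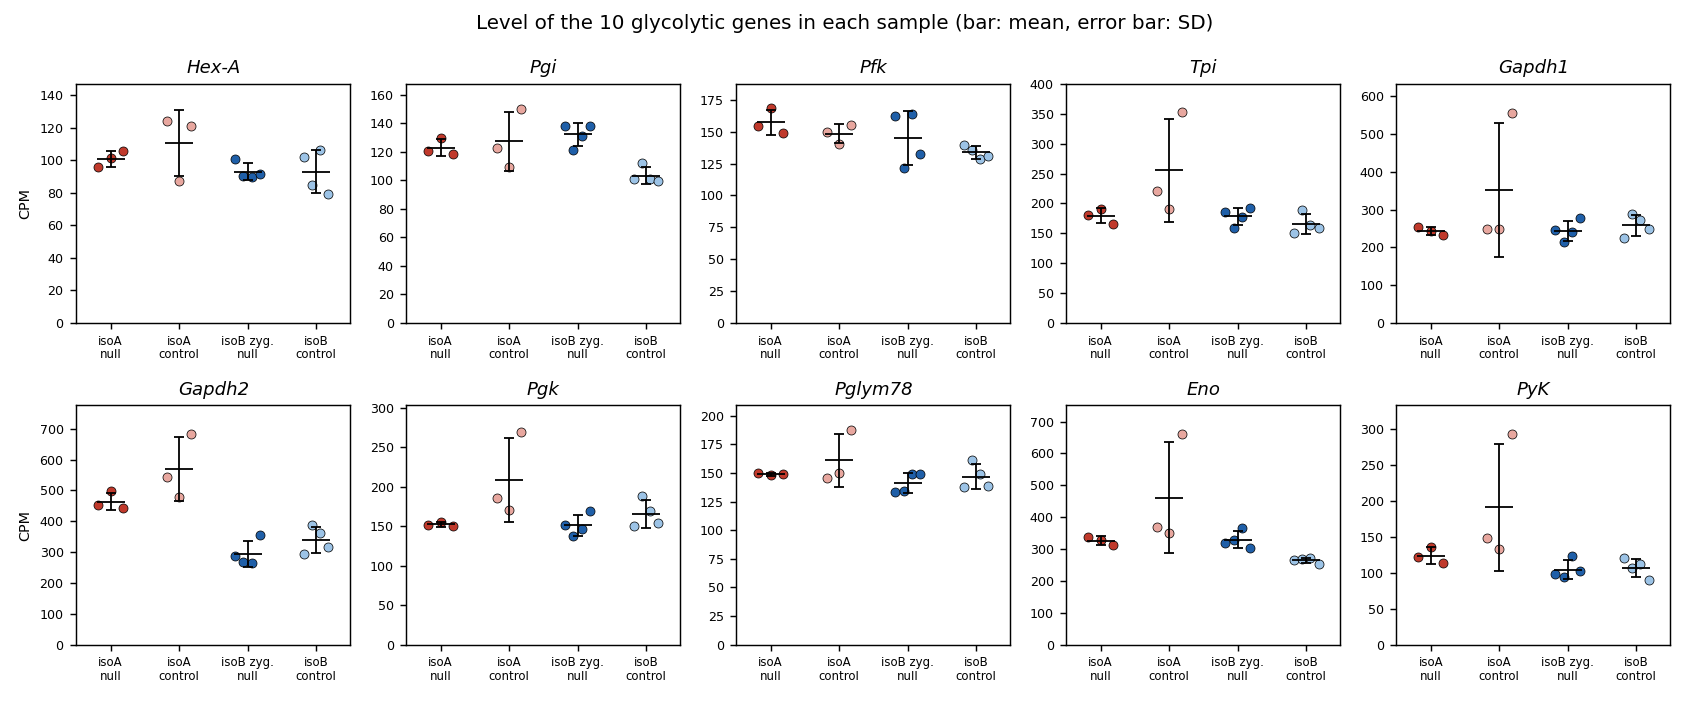
CPM of the 10 genes in each sample, with a panel for each gene in the order of the pathway and groups along the x axis; points are samples, the horizontal bar is the mean and the error bar the SD. *Pgi* and *Eno* show all 4 sggisoB zygotic null samples above their 4 controls, and in *Tpi*, *Gapdh1*, *Pgk*, *Eno* and *PyK* a single sggisoA control stands high.

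Counted over the pathway, 0 of 10 genes were higher and 0 of 10 lower at an adjusted p of at most 0.05 in sggisoA null embryos by edgeR, beside 0.289% and 0.702% of all genes. DESeq2 and limma-voom also passed 0 of 10, beside 6.03% and 1.06% of all genes in either direction. An unadjusted p under 0.05 from edgeR was found for 2, *Tpi* and *Pgk*, and over all genes for 18.9%. None was called at the study's thresholds, which also ask for a log2 fold change of 0.7 or more, up or down, and which 0.971% of all genes met. The null samples lay below all controls in 3 of 10 genes, *Tpi*, *Pgk* and *Eno*, beside 12.8% of all genes, and above them in 0 of 10, beside 11.9%.

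In sggisoB zygotic null embryos 2 of 10 genes were higher at an adjusted p of at most 0.05, beside 4.17% of all genes, and 0 of 10 were lower, beside 6.89%. DESeq2 and limma-voom each passed 2 as well, beside 19.6% and 10.8% of all genes in either direction. None reached a log2 fold change of 0.7 with any of the tests, and 4.56% of all genes were called with both thresholds. The groups did not overlap in the same 2 genes, with the zygotic null samples higher (9.45% of all genes), and in 0 of 10 with them lower (11.2%). The median log2 fold change of the 10 was -0.04, with 4 positive and 6 negative, beside -0.01 over all genes. With size factors from DESeq2 in place of TMM the signs stood at 5 and 5.

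**Figure D2:**
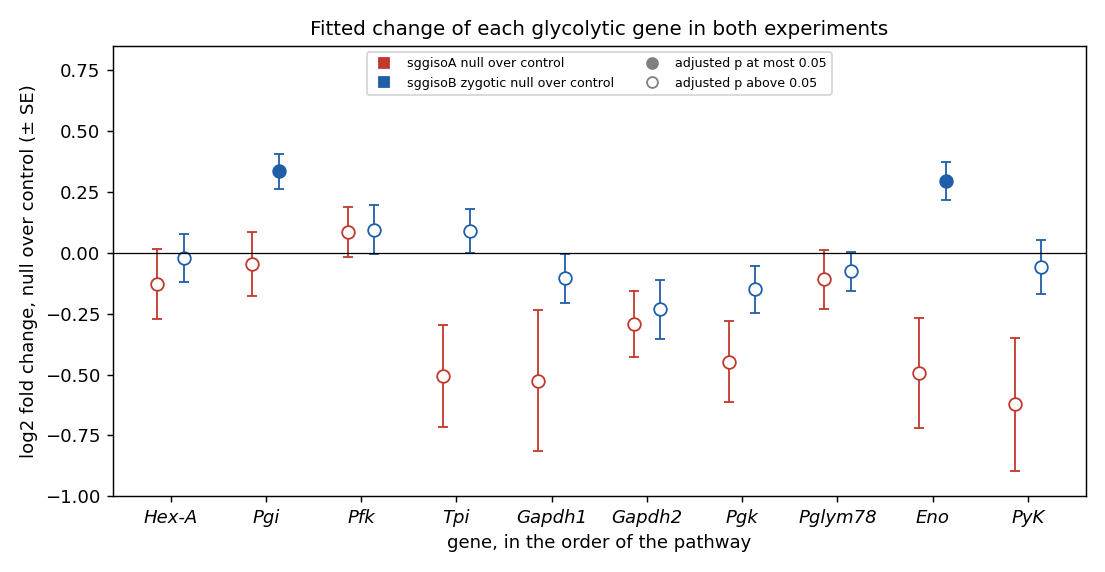
Fitted log2 fold change of each gene in the order of the pathway, null over control, with its SE as the error bar; red is sggisoA and blue is sggisoB, and filled points passed an adjusted p of 0.05. The only filled points are *Pgi* at 0.34 and *Eno* at 0.29 in sggisoB, and the widest error bars are those of *Gapdh1* and *PyK* in sggisoA.

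The difference between the mutations was tested as the sggisoB effect minus the sggisoA effect in a fit of all 14 samples. No gene of the 10 passed by edgeR, beside 2.54% of all genes, and 3 had an unadjusted p under 0.05, beside 20.9%. DESeq2 passed 1, *Eno*, beside 7.73% of all genes, and limma-voom 0, beside 2.17%. All 10 differences were positive, with a median of 0.37 on the log2 scale. The widest was that of *Eno*, 0.81 (SE 0.24, adjusted p = 0.0752 from edgeR and 0.0188 from DESeq2). *Tpi* had 0.62, *PyK* 0.59, *Gapdh1* 0.45 and *Pgi* 0.41. Without control 3 of the sggisoA experiment the median was 0.07, with 6 positive and 4 negative, and *Eno* had 0.45. Without control 2 of that experiment *Eno* passed (0.94, adjusted p = 0.0315 from edgeR).

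Control 3 of the sggisoA experiment carried the highest level of the 14 samples for 8 of the 10 genes, beside 22.7% of all genes, and was the highest of the 3 controls for 9 of 10, beside 39.8%. The excess was uneven along the pathway. Against the mean of the other 2 controls, *Gapdh1* was 2.24-fold higher in control 3, *PyK* 2.08-fold, *Eno* 1.84-fold, *Tpi* 1.72-fold and *Pgk* 1.51-fold. *Gapdh2* (1.34), *Pgi* (1.29), *Pglym78* (1.27), *Hex-A* (1.14) and *Pfk* (1.07) had smaller ratios. The median ratio was 1.42 for the 10 genes and 1 for all genes, and the ratio of *Gapdh1* stood at percentile 96 of all genes. The enzymes from *Tpi* downwards thus differed most, with *Gapdh2* and *Pglym78* as the exceptions, and the kinases of the upper part least. Summed over the 10 genes, the level was 2021, 2099 and 1937 CPM in the null samples, against 2261, 2060 and 3431 CPM in controls 1, 2 and 3.

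**Figure D3:**
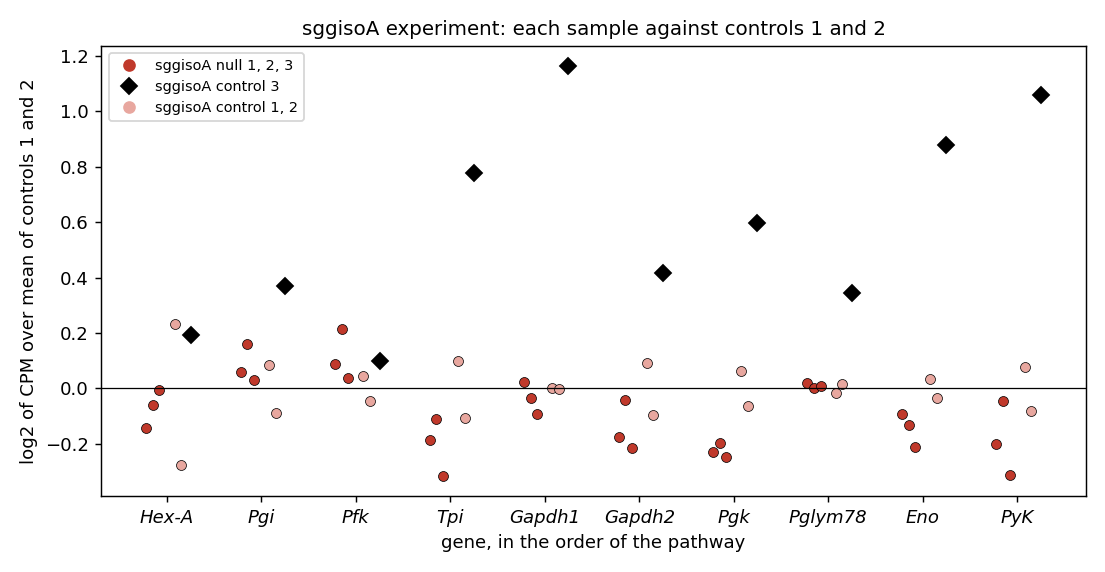
Level of each gene in the samples of the sggisoA experiment as log2 of its CPM over the mean of controls 1 and 2, in the order of the pathway; red points are the null samples, pale points controls 1 and 2, and black diamonds control 3. Control 3 lies highest for *Gapdh1* and *PyK*, 2.24-fold and 2.08-fold above the mean of the other 2 controls, and close to the other samples for *Pfk* and *Hex-A*.

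Other transcripts of control 3 differed too. Its ratio to the other 2 controls had a median of 1.58 over 7 genes of the pentose phosphate pathway, which branches off at glucose 6-phosphate, and of 1.21 over 18 genes of the tricarboxylic acid cycle. It was 1.05 over 7 other glycolysis genes and paralogues, 1.11 over 21 genes of the side branches and control of glycolysis and 1.11 over 7 genes of pyruvate entry. The median was 0.96 over 15 muscle markers, 0.66 over 9 genes of late epidermis and cuticle and 0.81 over 11 early patterning genes. Of 6 fat body markers only 3 were kept (*Fbp1*, *Lsp2* and *Adh* were not), and these had a median ratio of 1.60. The part of these differences in the levels of the 10 genes was not tested. Without control 3 the fitted changes in sggisoA null embryos were -0.21 for *Tpi*, -0.04 for *Gapdh1*, -0.15 for *Gapdh2*, -0.23 for *Pgk*, -0.15 for *Eno* and -0.19 for *PyK* on the log2 scale, and those of *Pgi* (0.08) and *Pglym78* (0.01) were positive. Fitted changes then numbered 3 positive and 7 negative.

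Levels can be compared between genes only per length of transcript, here as CPM per kilobase of the union of each gene's exons. *Gapdh2* had the highest level, with a median of 259 CPM per kilobase over the 14 samples, followed by *Gapdh1* (168), *Pglym78* (131), *Tpi* (118), *Eno* (87.2), *Pgk* (73.3), *PyK* (52.0), *Pgi* (49.2), *Pfk* (33.1) and *Hex-A* (23.8). The enzymes of the triose part thus stood above the kinases of the upper part. The order of neighbours held in all 14 samples for *Gapdh2* over *Gapdh1*, *Gapdh1* over *Pglym78*, *Tpi* over *Eno*, *Pgi* over *Pfk* and *Pfk* over *Hex-A*. It held in 11 of 14 for *Pglym78* over *Tpi* and for *Eno* over *Pgk*, and in 10 for *PyK* over *Pgi*, so these neighbours were not separated beyond the spread of samples. *Pgk* over *PyK* held in 13 of 14, all but control 3 of the sggisoA experiment. The 10 genes have 2 to 6 annotated transcripts each, and the union of their exons can be longer than any single transcript. As the same length was used in every sample, the agreement between samples does not measure this.

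Several genes around the pathway passed the test in sggisoB zygotic null embryos. Of 21 kept genes of the side branches and control of glycolysis, 3 rose there (*Hph*, *CG10924* and *Ldh*), beside 4.17% of all genes. In the same list 2 fell (*Gpo1* and *bigmax*), beside 6.89% of all genes. In sggisoA null embryos 0 of 19 passed, and 3 had an unadjusted p under 0.05 by edgeR, beside 18.9% of all genes. The list was chosen with earlier results of these data known, so these counts are a description. *Ldh*, lactate dehydrogenase, takes the pyruvate made by *PyK* and restores NAD. It had 398, 443, 395 and 324 CPM in the sggisoB zygotic null samples, against 265, 289, 233 and 285 CPM in the controls. Every zygotic null sample lay above every control, with a log2 fold change of 0.52 (SE 0.11, adjusted p = 0.0209 from edgeR). The call was lost without zygotic null 3 (0.51, adjusted p = 0.0546 from edgeR) or control 3 (0.46, adjusted p = 0.0698).

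*Hph* encodes the prolyl hydroxylase that marks the hypoxia factor Sima for breakdown. It had 254.6, 242, 226 and 245 CPM in the sggisoB zygotic null samples, against 37.2, 30.1, 34.2 and 34.3 CPM in the controls. The groups were far apart, with a log2 fold change of 2.81 (SE 0.08, adjusted p = 1.55e-07 from edgeR). In the same comparison *sima* itself had -0.08 and *ERR* -0.01 (adjusted p = 0.579 and 0.972 from edgeR). *CG10924*, named *Pepck2* in the annotation and encoding a phosphoenolpyruvate carboxykinase, had 0.82 (adjusted p = 0.0251). Its call was lost without zygotic null 2 (0.79, adjusted p = 0.0555 from edgeR), control 2 (0.72, 0.0728) or control 3 (0.77, 0.0820). *Gpo1*, a mitochondrial glycerol 3-phosphate oxidase, had -0.50 (adjusted p = 0.0343 from edgeR), and *bigmax*, which encodes the partner of the sugar sensor Mondo, had -0.35 (adjusted p = 0.0408 from edgeR). Each of these last 2 lost its call without any of zygotic null 2, zygotic null 3 or controls 1, 2 and 3, and *bigmax* also without zygotic null 1, with log2 fold changes of -0.39 to -0.51 for *Gpo1* and -0.30 to -0.36 for *bigmax*. *Gpdh1*, the cytosolic glycerol 3-phosphate dehydrogenase, did not pass (-0.31, adjusted p = 0.182 from edgeR).

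At the entry of pyruvate into mitochondria 1 of 7 genes rose and 1 fell in sggisoB zygotic null embryos. The shares over all genes were 4.17% and 6.89%. *Pdk*, the kinase that switches off pyruvate dehydrogenase, had 119, 108, 121 and 99.6 CPM in the zygotic null samples, against 84.8, 55.9, 63.7 and 59.5 CPM in the controls. The groups did not overlap, and the log2 fold change was 0.74 (SE 0.13, adjusted p = 0.0109 from edgeR). *Mpc1*, a subunit of the mitochondrial pyruvate carrier, had 37.9, 37.7, 49.2 and 46.6 CPM in the zygotic null samples, against 57.7, 57.6, 60.1 and 50.5 CPM in the controls. These groups did not overlap either, though zygotic null 3 and control 4 lay close, with a log2 fold change of -0.42 (SE 0.11, adjusted p = 0.0378 from edgeR). *Mpc1* lost its call without zygotic null 1 or 2 or controls 1, 2 or 3 (-0.34 to -0.41, adjusted p = 0.0635 to 0.113 from edgeR).

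**Figure D4:**
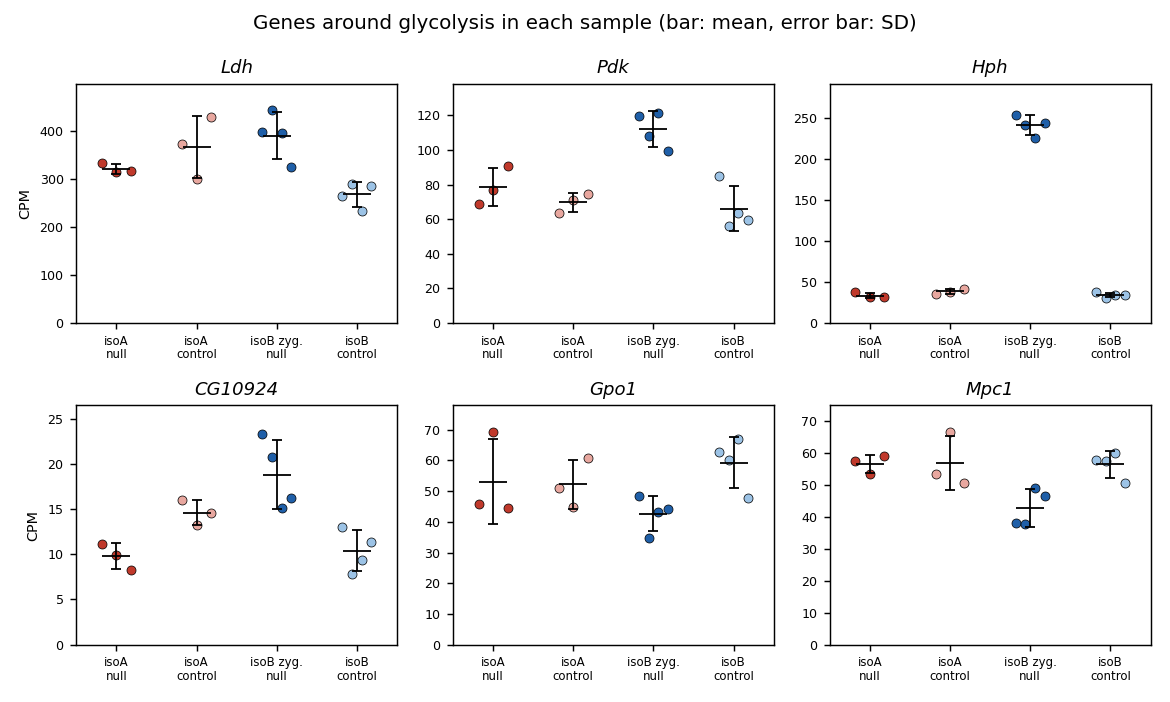
CPM of 6 genes around glycolysis in each sample, with a panel for each gene and groups along the x axis; points are samples, the bar is the mean and the error bar the SD. In *Hph* the 4 sggisoB zygotic null samples lie at 226 to 254.6 CPM while the samples of all other groups lie between 30.1 and 42.0 CPM, and *Ldh* and *Pdk* show the zygotic null samples above their 4 controls.

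In sggisoA null embryos the same genes had log2 fold changes of -0.19 (*Ldh*), -0.20 (*Hph*), -0.57 (*CG10924*), 0.03 (*Gpo1*), -0.51 (*bigmax*), 0.18 (*Pdk*) and -0.003 (*Mpc1*), and *Gpdh1*, *ERR* and *sima* had -0.24, -0.16 and 0.19. None passed (adjusted p = 0.171 to 0.994 from edgeR). The difference between the effects passed for *Ldh*, *Hph* and *CG10924*, beside 2.54% of all genes. Of 19 alternative fits, single samples left out included, *Hph* passed in 19, *CG10924* in 18 and *Ldh* in 5.

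The linked pathways were counted in the same way. In the tricarboxylic acid cycle 0 of 18 genes passed in either experiment by edgeR, with 4 at an unadjusted p under 0.05 in each, where all genes had 18.9% in the sggisoA and 30.9% in the sggisoB experiment. The median log2 fold change was -0.20 in sggisoA null embryos, with 17 of 18 negative, and -0.10 in sggisoB zygotic null embryos, with 14 of 18 negative. In the pentose phosphate pathway 0 of 7 passed in either experiment, with 2 at an unadjusted p under 0.05 in each, and medians of -0.42 and 0.03. Of the aldolase, hexokinase, mutase and other paralogues, 6 of 14 were kept in each experiment and 0 passed, with none at an unadjusted p under 0.05.

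**Figure D5:**
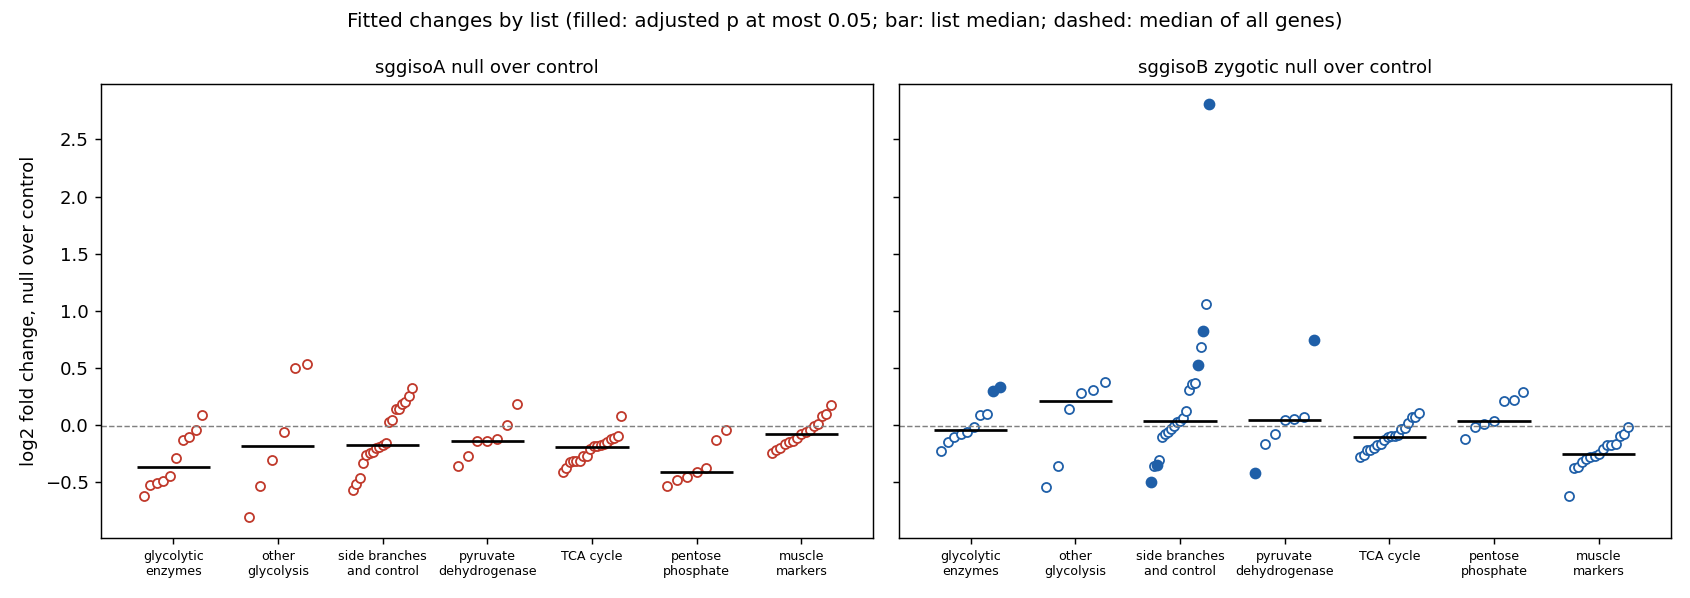
Fitted log2 fold changes of the genes of each list, sggisoA null over control on the left and sggisoB zygotic null over control on the right; points are genes, filled where the adjusted p was at most 0.05, black bars are list medians and the dashed line is the median of all genes. The glycolytic enzymes have a median of -0.37 on the left and -0.04 on the right, and the highest filled point on the right is *Hph* at 2.81.

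Few of the markers chosen for tissue and age passed the test in sggisoB zygotic null embryos, where *Pgi* and *Eno* rose. Glycolytic transcripts are known to be abundant in the forming muscles of the embryo. All 15 muscle markers had negative fitted changes there, with a median of -0.26, 7 at an unadjusted p under 0.05 (30.9% of all genes) and 0 past the adjusted threshold by edgeR. Their summed level ran from 23092 to 32682 CPM in the zygotic null samples, against 29637 to 35808 CPM in the controls. Of 9 genes of late epidermis and cuticle 2 fell, beside 6.89% of all genes. These were *Cpr67Fa1* (-1.19, adjusted p = 0.00288 from edgeR) and *Cpr62Bc* (-0.91, adjusted p = 0.00881 from edgeR). The summed level of the 9 genes ran from 2565 to 3798 CPM, against 3423 to 4426 CPM. For muscle and for cuticle these sums overlapped between the groups. Of 11 early patterning genes 1 rose, beside 4.17% of all genes. It was *h* (0.52, adjusted p = 0.0144 from edgeR, lost without control 3 at 0.52 with adjusted p = 0.0522). The summed level of the 11 genes ran from 239 to 260 CPM, against 204 to 213 CPM. Of the 3 fat body genes kept 0 passed, with a median log2 fold change of 0.03. Their sums overlapped, from 2612 to 4124 CPM against 3096 to 3625 CPM. The part of tissue make-up or age in the levels of *Pgi* and *Eno* was not tested. In sggisoA null embryos the summed muscle markers ran from 25667 to 30418 CPM, against 27844 to 30802 CPM, and 0 of 15 passed by edgeR, with 2 at an unadjusted p under 0.05.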

How the data were processed

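The authors aligned single-end reads with TopHat2 2.1.1 and Bowtie2 2.3.4.0 and counted them over exons per gene with Rsubread at default parameters. The table they deposited gives raw counts of 17493 genes, without normalization. The library kit keeps strand, and the default counting ignores it and leaves out reads that overlap more than 1 gene. The log2 CPM, fold changes and p-values of the authors' limma-voom fit were not used. Their raw columns equalled the counts in 147926 of 147926 values.

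Each experiment was fitted on its own with R 4.3.3 and edgeR 4.0.16 (filterByExpr with a minimum count of 10 and a total of 15, TMM, quasi-likelihood test, Benjamini-Hochberg adjustment over 10397 and 10693 genes). The difference of effects was fitted over 14 samples and 11021 genes. DESeq2 1.42.0, limma-voom (limma 3.58.1), DESeq2 size factors, no filter, a replicate block, 1 fit of all samples and leaving out each sample were the alternatives. The same alternatives for genes outside the 10 were added after seeing the data. The fits were tested on simulated data with larger changes than those of the 10 genes, so changes of their size were not tested. Overlap of groups was read on the printed CPM. Between replicates counts differed by more than sampling noise (chi-squared per gene 13.1 to 84.4).

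All 10 members are named. Of the lists, genes with an adjusted p of at most 0.05 are named, and *Ldh*, *Gpdh1*, *ERR*, *sima* and *sgg* in any case. The members and lists were chosen with earlier results of these data known. Positions come from Ensembl release 115 (BDGP6, rtracklayer 1.62.0), a later annotation than that used for the counting. No sequence is shown, and promoter motifs were not examined.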

Additional observations from a re-analysis of the deposited data

Results flagged for a closer look

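Among 48 groups of 4 samples, 3 held a sample far from the others of its group by Dixon's test, and chance marks about 1 in 20 groups. *Pgi* stood at 111.9 CPM in sggisoB control 2, above the other controls and below all 4 zygotic null samples. *Gpdh1* stood at 49.35 CPM in sggisoB zygotic null 3 and at 67.68 CPM in sggisoB control 1, each above the rest of its group. Without control 1 the log2 fold change of *Gpdh1* in sggisoB zygotic null embryos was -0.15.

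The effects of the mutations differed, as the sggisoB effect minus the sggisoA effect on the log2 scale, for *Hph* (3.031, adjusted p = 3.02e-08 from edgeR), *CG10924* (1.419, adjusted p = 0.0139), *h* (1.154, adjusted p = 0.00827) and *Ldh* (0.7356, adjusted p = 0.0441). In sggisoA null embryos *h* had a log2 fold change of -0.61 (adjusted p = 0.155 from edgeR). It passed there by DESeq2 (adjusted p = 0.0467) and in the edgeR fit of all 14 samples (adjusted p = 0.0375). For *Ldh* the difference missed the threshold without any sample of either experiment except sggisoA control 2 and sggisoB zygotic null 4 (0.60 to 0.77). For *CG10924* it missed the threshold without sggisoA null 3 (1.31, adjusted p = 0.0563 from edgeR).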

How the results depend on the processing

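No glycolytic gene passed in sggisoA null embryos under any of 12 alternatives, and none met both thresholds in either experiment under any alternative. In sggisoB zygotic null embryos 2 passed. The number was 0 to 2 when single samples were left out, 0 with the replicate block (*Pgi* 0.34, adjusted p = 0.110; *Eno* 0.29, adjusted p = 0.106 from edgeR) and 1 (*Pgi*) in the fit of all 14 samples, where *Eno* had an adjusted p of 0.197. *Pgi* and *Eno* were higher in all 14 alternatives. For the difference of effects the number was 0, with 1 by DESeq2 (*Eno*) and 0 to 1 when single samples were left out. Of the genes around the pathway that passed in sggisoB zygotic null embryos, *Ldh*, *CG10924*, *Gpo1*, *bigmax*, *Mpc1* and *h* missed the threshold with the block (adjusted p = 0.0682 to 0.144 from edgeR). *Gpo1*, *bigmax* and *Mpc1* missed it with no filter on low counts (0.0519 to 0.0905), *Gpo1* and *bigmax* in the fit of all samples (0.0706 and 0.0995), and *bigmax* with DESeq2 size factors (0.0535). The difference of effects of *Ldh* missed it by limma-voom (0.72, adjusted p = 0.0539) and with the block (0.72, adjusted p = 0.144 from edgeR), as did that of *h* with the block (1.17, adjusted p = 0.0757 from edgeR). *Hph* and *Pdk* passed in sggisoB zygotic null embryos under all 14 alternatives. Over all genes, those called in sggisoA null embryos numbered 101, against 368 by DESeq2, 295 in the fit of all samples and 43 with the block. Genes past the adjusted p in sggisoB zygotic null embryos numbered 1183, against 2096 by DESeq2 and 199 with the block. With single samples left out they numbered from 309 (without control 3) to 1806 (without zygotic null 4). The difference of effects passed for 280, against 852 by DESeq2 and 63 with the block. Samples share only a replicate number. With group means subtracted, same-numbered nulls and controls correlated at -0.14, -0.11 and -0.06 in the sggisoA experiment. In the sggisoB experiment these correlations were -0.06, -0.17, 0.07 and 0.19. No sggisoA null correlated best with the control of its own number, and of the sggisoB zygotic nulls only 3 and 4 did. The cause of these changes was not tested. The lowest count of the 10 genes in any library was 714.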

Other observations

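The genes whose log2 CPM followed the mean of the 10 glycolytic genes most closely over the 14 samples were *Roe1* (Pearson r = 0.95, Spearman rho = 0.98), *ND-B17* (0.95, 0.91), *CG4882* (0.95, 0.91), *Mat1* (0.94, 0.93) and *Nurf-38* (0.94, 0.89). With group means subtracted they were *ATPsynD* (0.98), *CG17896* (0.97), *ND-B17* (0.96), *CG3902* (0.95) and *CG6180* (0.95). These are descriptions over samples that share libraries and scaling. *ATPsynD* encodes a subunit of ATP synthase and *ND-B17* one of complex I. Without sggisoA control 3 the r of *Roe1* was 0.90, that of *ND-B17* 0.78 over levels and that of *ATPsynD* 0.95 with group means subtracted. Among the 10 genes themselves, with group means subtracted, the median r of the 45 pairs was 0.75 over the 14 samples. Over the 8 samples of the sggisoB experiment alone it was 0.28.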
